A study of Mus musculus with 6 samples.

Results

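The 37 genes examined here form the unfolded protein response and the integrated stress response, and they were taken by gene symbol from the 39179 genes of the expression table. The choice by name used no measured value as a criterion, but it was made with earlier results of these data known. They comprise 6 stress sensors and transcription factors, 7 stress effectors and feedback genes, 9 genes of amino acid supply, 13 endoplasmic reticulum (ER) chaperones and folding factors, and 2 genes of ER-associated degradation. RNA-seq was performed on Ocy454 cells, an immortal mouse line with osteocyte properties, after 4 h with vehicle, with 1 nM PTH(1-34), the active fragment of parathyroid hormone, or with 0.5 µM YKL-05-093, a small-molecule inhibitor of salt-inducible kinases. Cells of all 3 groups were grown at 33 °C, kept for 14 days at 37 °C and given fresh medium 24 h before treatment, and the vehicle of PTH was PBS with 25 mM HCl. The paper gives DMSO as the solvent of its inhibitors in vitro, and does not state whether the vehicle libraries received DMSO. The part of the solvent in the comparisons with YKL-05-093 was not tested. According to the paper, the compound also targets other kinases in vitro. Some genes measured there responded to it in cells deficient in the salt-inducible kinases SIK2 and SIK3. The part of other kinases in the values given here was not tested. Each group had 2 libraries, and because no source used here says that they came from separate cultures, the p-values measure only the spread between libraries, which may be technical. All libraries came from 1 line, so other osteocytes are not represented. The comparisons ask whether either agent changed this stress programme, and whether the agents differed from each other in it.

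The unfolded protein response is triggered when unfolded proteins accumulate in the ER. The sensor kinase PERK (Eif2ak3) phosphorylates the translation factor eIF2α, the nuclease IRE1α (Ern1) splices Xbp1 mRNA, and ATF6 is cleaved to release a transcription factor. Other kinases phosphorylate eIF2α upon amino acid shortage, haem shortage or viral RNA, so this shared branch is called the integrated stress response, and its main transcription factor is ATF4. Osteoblasts secrete large amounts of collagen and depend on the ER folding machinery. ATF4 activity is controlled largely at translation, ATF6 by cleavage and Xbp1 by splicing, and none of these steps is read by a gene-level RNA value.

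Values are RPKM, reads scaled to the length of the gene and the depth of the library, and levels are compared between genes on this scale only. Library totals, worked back from the values, were between 17505798 and 27983585 reads, and 3 reads on a gene of 2000 bases corresponded to 0.0536 to 0.0857 RPKM. The vehicle libraries differed more from each other than did the treated pairs, with a median absolute log2 difference between replicates of 0.333 over all genes tested, against 0.108 for PTH and 0.103 for YKL-05-093. The comparisons with vehicle are therefore also given against each vehicle library alone, as counts for the set and as values for the genes whose result moved with it. Of 12 osteocyte and osteoblast markers, 2 (Sost and Fgf23) were at or under 3 reads in every library and Mepe reached 4 reads at most, whereas Col1a1, Alpl, Pdpn and Sp7 were abundant. Dmp1, an osteocyte matrix gene, was at 0.376 to 1.15 RPKM, so few transcripts of the late osteocyte markers were found under these conditions. The summed RPKM of these markers ranged from 533 to 630 in vehicle, from 689 to 771 after PTH and from 605 to 708 after YKL-05-093. Col1a1 alone was at 259 to 430 RPKM, and the markers did not move together. After PTH, against vehicle, Bglap (log2 fold change 1.58, limma adjusted p = 0.0286) and Pdpn (1.44, limma adjusted p = 0.0148) were higher. Sp7 was lower (-1.97, limma adjusted p = 0.0019). After YKL-05-093, 0 of the 9 markers tested had an adjusted p-value under 0.05 against vehicle. Of 13 listed markers of other cell types, 9 were at or under 3 reads in every library, including Myod1 and Cdh5 at 0. Their sum ranged from 74.9 to 86.7 RPKM in vehicle, from 89.5 to 96.6 after PTH and from 92.4 to 93.2 after YKL-05-093, nearly all of it Ctsk. The part of these markers in the results was not tested.

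All 37 genes had at least 0.5 RPKM in at least 2 libraries and were tested, with between 29 reads (Chac1) and 21871 reads (Canx) in a library, and 35 of them had at least 100 reads in every library. Vehicle levels ran from 0.642 ± 0.0454 RPKM for Slc7a11 (SD, n = 2), at percentile 7.49 of the genes tested, to 185 ± 28.5 RPKM for Calr (SD, n = 2), at percentile 97.9. Calr, Hspa5, Canx and Hsp90b1, which encode the most abundant ER chaperones, were the 4 highest genes of the set. The transcription factor gene Atf4 also stood high, at 88.1 ± 14.4 RPKM (SD, n = 2), whereas Trib3, Chac1, Ern1 and Slc7a11 were the 4 genes under 3 RPKM. In all, 14 of the 37 genes were above 30 RPKM in vehicle, 9 of them ER chaperones or folding factors.

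**Figure D1:**
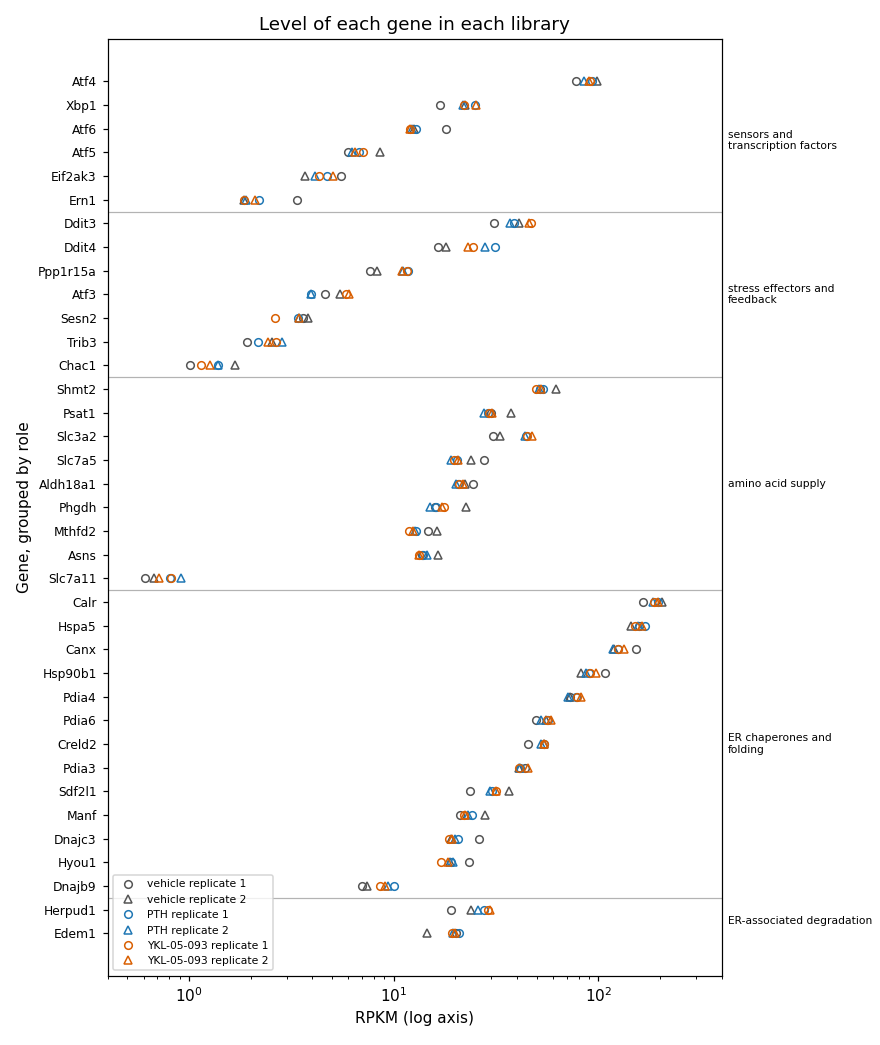
RPKM (log axis) of the 37 genes, grouped by role, in each of the 2 vehicle, 2 PTH and 2 YKL-05-093 libraries; each point is 1 library. The levels span from 0.610 RPKM (Slc7a11) to 206 RPKM (Calr), and most points of a gene lie close together whatever the treatment.

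Neither agent changed a gene of this set past the test. Against vehicle, 0 of 37 genes passed after PTH (adjusted p-value under 0.05, limma, Benjamini-Hochberg over all genes tested), where 2.19% of all genes tested passed and 1.91% passed with more than a 2-fold change. After YKL-05-093, 0 of 37 genes passed, where 0.666% of all genes tested passed and 0.666% passed with more than a 2-fold change. At an unadjusted p-value under 0.05 there were 4 genes for each agent: Ddit4, Dnajb9, Ppp1r15a and Slc3a2 for PTH, and Ddit4, Herpud1, Ppp1r15a and Slc3a2 for YKL-05-093. This is 10.8% of the set, beside 13.3% of all genes tested for PTH and 8.66% for YKL-05-093. limma-voom on the recovered reads also passed 0 genes for either agent. For a single gene the smallest p that an exact permutation test (two-sided, 2 libraries per group) can give is 0.333. RNA of a whole culture does not tell fewer cells of a type apart from less RNA per cell.

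The intervals show how large a change these libraries could have missed. Median log2 fold changes of the 37 genes were -0.03 for PTH and 0.05 for YKL-05-093, beside -0.03 and -0.04 over all genes tested. Their median 95% interval reached 0.43 to either side of the log2 fold change in both comparisons. After PTH the interval lay within a 2-fold change in either direction for 36 of 37 genes, the exception being Ddit4, and after YKL-05-093 for 37 of 37. Thus a change of more than 2-fold lay outside the interval of nearly every gene, while smaller changes lay within many of the intervals.

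**Figure D2:**
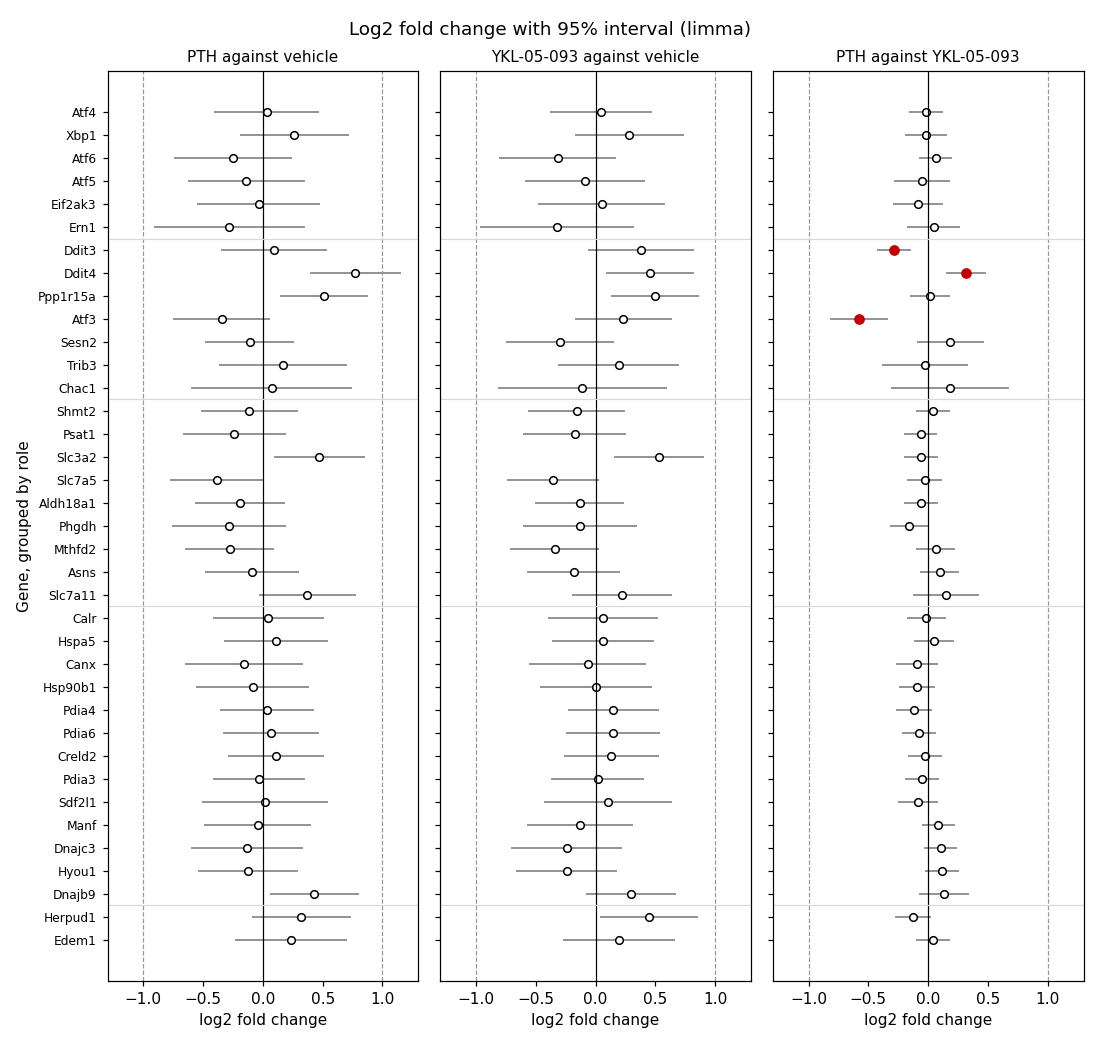
Log2 fold change of the 37 genes in the 3 comparisons, with 95% intervals from limma; genes are grouped by role, and filled points passed the test. The intervals of both comparisons with vehicle are wide (median 0.43 to either side) and those of PTH against YKL-05-093 narrower (median 0.16), and Atf3, Ddit3 and Ddit4 are the 3 genes that passed.

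When PTH was set directly against YKL-05-093, without the vehicle libraries, 3 of 37 genes passed: 1 was higher after PTH (Ddit4) and 2 were lower (Atf3 and Ddit3). All 3 belong to the stress effectors. Of all genes tested, 4.88% passed as higher and 5.14% as lower after PTH, so the share of the set, 2.7% and 5.41%, was close to this background. None of the 37 differed by more than 2-fold between the agents. Of all genes tested, 1.21% passed with more than a 2-fold difference. At an unadjusted p-value under 0.05 there were the same 3 genes (8.11%), where 22.3% of all genes tested were. limma-voom passed 3 as well. With 1 fit of all 6 libraries 0 of the 37 genes passed in limma, and without the filter on low values 0 did. Of all genes tested, 146 and 302 passed there, beside 1427 in the main fit. With any 1 of the 4 libraries left out, a single library stood for 1 agent. The 3 genes did not pass then, and fewer of all genes tested did. Their log2 differences kept their signs, at -0.60 to -0.55 for Atf3, -0.32 to -0.26 for Ddit3 and 0.24 to 0.40 for Ddit4. The median log2 difference of the set was -0.02, beside 0.01 over all genes tested.

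Whether the libraries of one group lay entirely above or below those of another gives a description without a test. Both PTH libraries were above both vehicle libraries for 6 of 37 genes (16.2%), where 19.1% of all genes tested were, and below for 6 (16.2%), where 24.0% were. For YKL-05-093, 10 genes (27.0%) were above both vehicle libraries, where 15.7% of all genes tested were, and 7 (18.9%) were below, where 22.1% were. Between the agents, 9 genes (24.3%) were higher in both PTH libraries than in both YKL-05-093 libraries, where 26.3% of all genes tested were, and 12 (32.4%) were lower, where 23.7% were. The 6 genes above vehicle after PTH were Ddit4, Dnajb9, Herpud1, Ppp1r15a, Slc3a2 and Slc7a11. Both comparisons with vehicle share the same vehicle libraries.

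The number of genes that passed differed with the vehicle library used as the control. Against vehicle replicate 1 alone, 13 of 37 genes (35.1%) passed after PTH, where 31.6% of all genes tested did, and 10 (27.0%) passed after YKL-05-093, where 19.1% did. Against vehicle replicate 2 alone, 6 genes (16.2%) passed after PTH, where 9.35% of all genes tested did, and 0 passed after YKL-05-093, where 0.309% did. In these fits the lone vehicle library is assumed to vary like the treated pair. After PTH, 3 genes passed against each vehicle library, Ddit4, Ppp1r15a and Slc3a2, all 3 higher. They are 8.11% of the set, beside 5.9% of all genes tested that passed against each in the same direction. After YKL-05-093, 0 of 37 did, beside 0.31%. The log2 fold change had the same sign against each vehicle library for 17 of 37 genes after PTH (45.9%, with 10 positive and 7 negative), where 57.0% of all genes tested had it. It did for 21 of 37 after YKL-05-093 (56.8%, with 11 positive and 10 negative), where 52.5% of all genes tested had it.

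The difference between the vehicle libraries went with gene length. Among the 37 genes, vehicle replicate 2 was higher for 25, and the log2 difference between the vehicle replicates ran from -0.83 for Ern1, of 9454 bases, to 0.68 for Chac1, of 1634 bases. Its correlation with log2 length across the 37 genes was r = -0.75 (Spearman's rho = -0.71), whereas in the PTH pair r was -0.03 (rho = 0.0019). In the YKL-05-093 pair it had the opposite sign, with r = 0.22 (rho = 0.35). Genes are not independent replicates and all points share the same libraries, so this is a description. All 8 genes under 2000 bases were higher in vehicle replicate 2, by a median of 0.37 on the log2 scale, against 17 of 29 longer genes, with a median of 0.12. Over the 14261 genes tested for PTH the vehicle correlation was r = -0.28 (rho = -0.53). The part of length in the comparisons with vehicle was not tested.

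**Figure D3:**
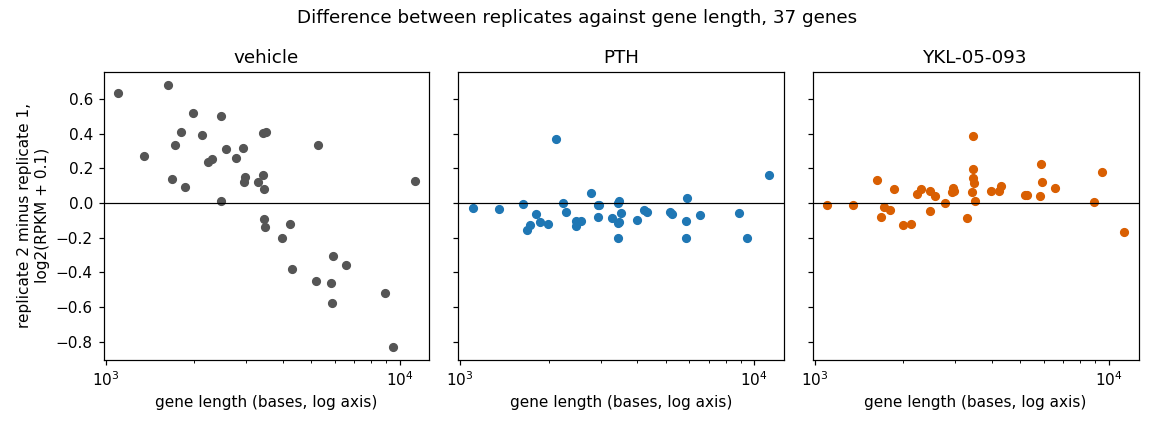
Log2 difference between replicates 2 and 1 against gene length in bases (log axis) for the 37 genes, in the vehicle, PTH and YKL-05-093 pairs. In vehicle all 8 genes under 2000 bases lie above 0, as do 17 of the 29 longer genes, and the values fall with length (r = -0.75), whereas the treated pairs lie closer to 0.

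Transcripts of the sensors and transcription factors did not pass the test in any comparison (0 of 6 in each). Atf4 was at 78.0 and 98.3 RPKM in vehicle, at 93.6 and 85.5 after PTH and at 91.3 and 89.8 after YKL-05-093. All 4 treated values lay between those of the vehicle libraries. Its log2 fold change was 0.03 for PTH (95% interval -0.41 to 0.47, limma adjusted p = 0.969) and 0.05 for YKL-05-093 (-0.38 to 0.48, adjusted p = 0.971). Xbp1, whose spliced form encodes an activator of ER chaperone genes, was at 16.9 and 22.4 RPKM in vehicle, at 25.1 and 21.7 after PTH and at 22.1 and 25.3 after YKL-05-093. The groups overlapped, with log2 fold changes against vehicle of 0.26 after PTH (limma adjusted p = 0.667) and 0.28 after YKL-05-093 (adjusted p = 0.805). Against vehicle replicate 1 alone Xbp1 was higher after PTH by 0.46 (limma adjusted p = 0.0372), and against replicate 2 alone the value was 0.06 (adjusted p = 0.744). The YKL-05-093 values were 0.48 (limma adjusted p = 0.0624) and 0.08 (adjusted p = 0.667). Those of Atf4 changed sign, from 0.20 to -0.14 for PTH and from 0.22 to -0.12 for YKL-05-093. Xbp1 values hold both the spliced and the unspliced form. The sensor genes Atf6, Ern1 and Eif2ak3 had means of 15.2, 2.61 and 4.62 RPKM in vehicle and log2 fold changes from -0.33 to 0.05 against it. They are among the longer genes, and all 3 were lower in vehicle replicate 2 than in replicate 1. Atf5, a further transcription factor that is translated under stress, had log2 fold changes of -0.14 for PTH and -0.09 for YKL-05-093. Between the agents the 6 genes differed by -0.09 to 0.06 on the log2 scale.

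The stress effectors and feedback genes held the largest log2 values of the set for PTH, both against vehicle (Ddit4) and against YKL-05-093 (Atf3), whereas for YKL-05-093 against vehicle the largest was that of the amino acid transporter gene Slc3a2. Atf3, which encodes a transcription factor induced by many kinds of stress (chr1:191170296-191218039, minus strand, GRCm38), was at 4.63 and 5.47 RPKM in vehicle, at 3.94 and 3.94 after PTH and at 5.83 and 6.04 after YKL-05-093. The PTH values were the lowest and the YKL-05-093 values the highest, with vehicle in between and no overlap. Between the agents Atf3 was lower after PTH, with a log2 difference of -0.58 ± 0.12 (SE, 95% interval -0.82 to -0.33, limma adjusted p = 0.00319). Against vehicle its log2 fold change was -0.35 for PTH (-0.75 to 0.06, adjusted p = 0.464) and 0.23 for YKL-05-093 (-0.17 to 0.64, adjusted p = 0.815), so neither agent differed from vehicle past the test.

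Ddit3 encodes CHOP, a transcription factor of the later, pro-apoptotic stage of the stress response (chr10:127290774-127296288, plus strand, GRCm38). It was at 30.9 and 41.1 RPKM in vehicle, at 38.8 and 37.2 after PTH and at 47.0 and 45.7 after YKL-05-093. Both YKL-05-093 values were above the other 4, and the PTH values lay between those of the vehicle libraries. Ddit3 was lower after PTH than after YKL-05-093, with a log2 difference of -0.29 ± 0.07 (SE, 95% interval -0.43 to -0.14, limma adjusted p = 0.0108). Against vehicle the log2 fold change was 0.38 for YKL-05-093 (-0.07 to 0.82, adjusted p = 0.671) and 0.09 for PTH (-0.35 to 0.54, adjusted p = 0.891). Against single vehicle libraries, the YKL-05-093 value was 0.58 (limma adjusted p = 0.0267) with replicate 1 and 0.17 (adjusted p = 0.206) with replicate 2. Exons of Ddit3 overlap exons of Mars and Gm4189 on the opposite strand, and the strand setting of the counting is not given in the sources used here, so their reads may not be fully separated. Mars itself, which encodes the methionyl-tRNA synthetase, had a log2 difference between the agents of -0.03 (limma adjusted p = 0.855).

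Ddit4, which encodes REDD1, an inhibitor of mTORC1 signalling (chr10:59949669-59951834, minus strand, GRCm38), was at 16.4 and 18.0 RPKM in vehicle, at 31.1 and 27.9 after PTH and at 24.3 and 23.0 after YKL-05-093. No groups overlapped, with PTH the highest, YKL-05-093 next and vehicle the lowest. Ddit4 was higher after PTH than after YKL-05-093 by 0.32 ± 0.08 on the log2 scale (SE, 95% interval 0.15 to 0.49, limma adjusted p = 0.0155). Against vehicle it had the largest log2 fold change of the set after PTH, 0.77 (0.39 to 1.15), a 1.71-fold higher level, which did not pass (limma adjusted p = 0.0666). For YKL-05-093 it was 0.46 (0.09 to 0.83, adjusted p = 0.43). Against vehicle replicate 1 alone the PTH value was 0.84 (limma adjusted p = 0.0101) and against replicate 2 alone 0.71 (adjusted p = 0.0154). The corresponding YKL-05-093 values were 0.52 (adjusted p = 0.0373) and 0.39 (adjusted p = 0.122).

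Ppp1r15a encodes GADD34, the phosphatase subunit that dephosphorylates eIF2α and ends the response. It was at 7.64 and 8.32 RPKM in vehicle, at 11.7 and 11.1 after PTH and at 11.7 and 10.96 after YKL-05-093. All 4 treated values were above both vehicle values and close to each other. The log2 fold changes were 0.51 (0.14 to 0.88, limma adjusted p = 0.206) for PTH and 0.50 (0.13 to 0.87, adjusted p = 0.363) for YKL-05-093, and the difference between the agents was 0.01 (-0.15 to 0.18, adjusted p = 0.956). Against vehicle replicate 1 alone Ppp1r15a was higher after PTH by 0.57 (limma adjusted p = 0.0158), and against replicate 2 alone by 0.45 (adjusted p = 0.0421). The YKL-05-093 values were 0.56 (limma adjusted p = 0.0364) with replicate 1 and 0.44 (adjusted p = 0.114) with replicate 2.

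Trib3, a pseudokinase gene induced downstream of ATF4 and CHOP, was at 1.91 and 2.54 RPKM in vehicle, at 2.18 and 2.84 after PTH and at 2.65 and 2.43 after YKL-05-093. The groups overlapped, with log2 fold changes of 0.17 for PTH (limma adjusted p = 0.822) and 0.19 for YKL-05-093 (adjusted p = 0.877). Chac1, which encodes a glutathione-degrading enzyme, was at 1.01 and 1.68 RPKM in vehicle, and all 4 treated values, 1.15 to 1.39 RPKM, lay between them. Sesn2, which encodes a leucine sensor that restrains mTORC1, had log2 fold changes of -0.11 for PTH and -0.30 for YKL-05-093. Trib3 and Chac1 rest on few reads, 71 to 151 and 29 to 77 per library.

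**Figure D4:**
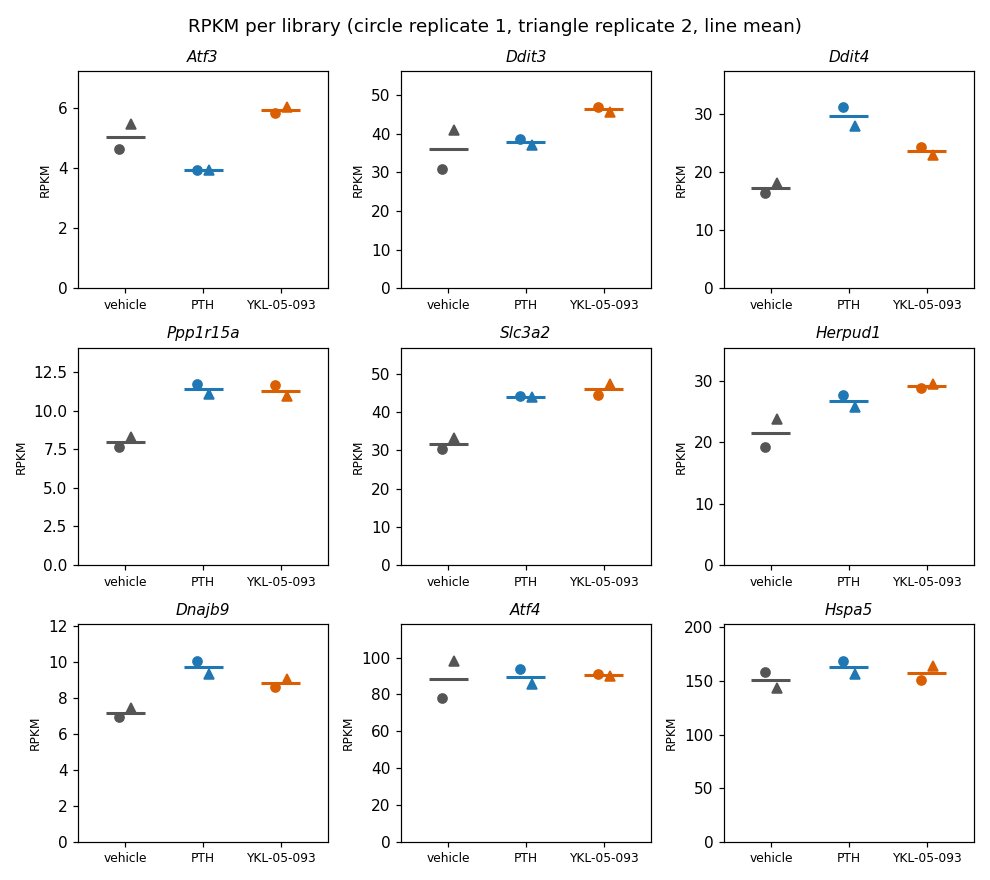
RPKM of 9 genes of the set in each library, 1 panel per gene, with points for the 2 libraries of vehicle, PTH and YKL-05-093 and a line at each mean. Ddit4 is highest after PTH (31.1 and 27.9 RPKM), Atf3 and Ddit3 are highest after YKL-05-093, and the groups overlap for Atf4 and Hspa5.

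Among the 9 genes of amino acid supply, 0 passed in any comparison (at an unadjusted p-value under 0.05, 1 for each agent against vehicle, Slc3a2, and 0 between the agents). Asns, the asparagine synthetase gene and a standard readout of ATF4, was at 13.8 and 16.5 RPKM in vehicle, at 13.9 and 14.5 after PTH and at 13.3 and 13.3 after YKL-05-093. The PTH values lay between the vehicle values and the YKL-05-093 values below both. Its log2 fold changes were -0.09 for PTH (limma adjusted p = 0.881) and -0.18 for YKL-05-093 (adjusted p = 0.853). The serine and one-carbon pathway enzyme genes Psat1, Phgdh, Shmt2 and Mthfd2 and the proline synthesis gene Aldh18a1 had log2 fold changes from -0.29 to -0.11 for PTH and from -0.34 to -0.13 for YKL-05-093. Thus the 6 enzyme genes of this group all had negative values against both vehicle libraries together, none of which passed. Against replicate 1 alone Asns and Shmt2 after PTH had values of 0.04 and 0.01, and Phgdh after YKL-05-093 had 0.12. Against replicate 2 alone all 6 were negative for both agents, and Psat1 (-0.41, limma adjusted p = 0.0364) and Phgdh (-0.53, adjusted p = 0.0251) passed after PTH.

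The transporter genes of this group did not move together. Slc3a2 encodes the heavy chain CD98, which pairs with the light chains LAT1 (Slc7a5) and xCT (Slc7a11) to import leucine and cystine. It was at 30.4 and 33.1 RPKM in vehicle, at 44.2 and 43.9 after PTH and at 44.6 and 47.4 after YKL-05-093. All 4 treated values were above vehicle, with log2 fold changes of 0.47 (0.09 to 0.85, limma adjusted p = 0.264) and 0.53 (0.15 to 0.91, adjusted p = 0.337). Slc7a5 was at 27.6 and 24.0 RPKM in vehicle, at 20.4 and 19.0 after PTH and at 19.6 and 20.6 after YKL-05-093. All 4 treated values of Slc7a5 were below vehicle, with log2 fold changes of -0.38 for PTH (limma adjusted p = 0.391) and -0.36 for YKL-05-093 (adjusted p = 0.629). Slc7a11 was at 0.610 and 0.674 RPKM in vehicle and at 0.717 to 0.915 RPKM in the treated libraries, with log2 fold changes of 0.37 for PTH (limma adjusted p = 0.42) and 0.22 for YKL-05-093 (adjusted p = 0.83). Against each vehicle library alone, Slc3a2 passed after PTH, at 0.53 (limma adjusted p = 0.0114) and 0.41 (adjusted p = 0.031). For YKL-05-093 the Slc3a2 values were 0.59 (limma adjusted p = 0.0282) with replicate 1 and 0.47 (adjusted p = 0.0957) with replicate 2. Slc7a5 was lower after both agents than in vehicle replicate 1 alone, at -0.49 for PTH (limma adjusted p = 0.0178) and -0.46 for YKL-05-093 (adjusted p = 0.0337), and did not pass against replicate 2, at -0.28 (adjusted p = 0.101) and -0.25 (adjusted p = 0.152).

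The ER chaperones and folding factors were abundant and 0 of 13 passed in any comparison (at an unadjusted p-value under 0.05, 1 for PTH against vehicle, Dnajb9, and 0 in the other comparisons). Hspa5 encodes BiP, the ER chaperone that binds the sensors and the standard readout of the unfolded protein response. It was at 158 and 144 RPKM in vehicle, at 169 and 157 after PTH and at 151 and 164 after YKL-05-093. The groups overlapped, with log2 fold changes of 0.11 (-0.33 to 0.54, limma adjusted p = 0.864) for PTH and 0.06 (-0.36 to 0.49, adjusted p = 0.959) for YKL-05-093. Against single vehicle libraries Hspa5 had values from -0.0083 to 0.18 and did not pass. The lectin chaperones Calr and Canx, the HSP90 paralogue Hsp90b1, the disulfide isomerases Pdia3, Pdia4 and Pdia6, and Creld2, Manf, Sdf2l1, Dnajc3 and Hyou1 had log2 fold changes from -0.16 to 0.11 for PTH and from -0.24 to 0.15 for YKL-05-093. Over the 13 genes no 95% interval reached below -0.65 or above 0.80 for PTH, or below -0.70 or above 0.67 for YKL-05-093. Between the agents they differed by -0.12 to 0.13 on the log2 scale.

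Dnajb9, which encodes an HSP40 cochaperone of BiP, had the largest log2 fold change of this group. It was at 6.96 and 7.43 RPKM in vehicle, at 10.1 and 9.35 after PTH and at 8.60 and 9.09 after YKL-05-093. All 4 treated values were above vehicle, with log2 fold changes of 0.43 (0.06 to 0.80, limma adjusted p = 0.301) and 0.29 (-0.08 to 0.67, adjusted p = 0.732). In ER-associated degradation, which returns misfolded proteins to the cytosol, Herpud1 was at 19.1 and 23.8 RPKM in vehicle, at 27.6 and 25.7 after PTH and at 28.8 and 29.5 after YKL-05-093. Its treated values were all above vehicle as well, with log2 fold changes of 0.32 for PTH (limma adjusted p = 0.529) and 0.45 for YKL-05-093 (adjusted p = 0.506). Against vehicle replicate 1 alone Herpud1 was higher after PTH by 0.48 (limma adjusted p = 0.0204) and after YKL-05-093 by 0.60 (adjusted p = 0.0267), and against replicate 2 alone the values were 0.16 (adjusted p = 0.281) and 0.29 (adjusted p = 0.125). Dnajb9 after PTH was higher by 0.47 (limma adjusted p = 0.0391) with replicate 1 and had 0.38 (adjusted p = 0.106) with replicate 2. Edem1, which encodes a lectin of the same pathway, had log2 fold changes of 0.23 for PTH (limma adjusted p = 0.713) and 0.20 for YKL-05-093 (adjusted p = 0.867). For PTH this was 0.0034 (limma adjusted p = 0.978) against vehicle replicate 1 alone and 0.46 (adjusted p = 0.0307) against replicate 2 alone.

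The promoters show which genes of the set carry the letters read by the ER stress factors. RefSeq promoter windows of 300 bases (250 before and 50 after the start, GRCm38.p6) were matched for 33 of the 37 genes. Those of Manf, Slc7a5, Hyou1 and Atf6 were not matched. The ER stress response element (ERSE), CCAAT and CCACG separated by 9 bases on either strand, is bound by NF-Y and by ATF6 or XBP1. It was found in 7 of 33 genes (21.2%), all of them chaperones or folding factors, and in 0.137% of the 27025 genes with a window. The genes were chosen as members of this response, so a share above that of all genes could be foreseen. The chaperone and folding genes Dnajb9, Pdia3, Pdia4 and Sdf2l1 had a window but no match. The promoter of Hspa5 (chr2:34771840-34772139, plus strand) is shown for its ERSE, with the CCAAT and CCACG parts in capitals, since this gene is the standard readout of the response.
Hspa5: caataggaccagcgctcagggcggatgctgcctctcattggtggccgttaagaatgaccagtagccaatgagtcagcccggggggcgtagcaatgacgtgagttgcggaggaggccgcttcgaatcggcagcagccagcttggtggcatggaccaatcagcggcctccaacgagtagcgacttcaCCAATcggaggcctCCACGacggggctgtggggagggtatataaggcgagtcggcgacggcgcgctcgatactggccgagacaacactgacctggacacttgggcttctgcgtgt

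The matches of the 7 genes are given in the orientation of the motif, again with both parts in capitals.
Hspa5 (chr2:34772019-34772049, with the gene, beginning 65 bases before the start): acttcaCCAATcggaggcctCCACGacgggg
Calr (chr8:84847069-84847099, against the gene, beginning 162 bases before the start): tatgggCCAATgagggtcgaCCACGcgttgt
Hsp90b1 (chr10:86705632-86705662, with the gene, beginning 212 bases before the start): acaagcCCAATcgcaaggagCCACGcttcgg
Hsp90b1 (chr10:86705527-86705557, against the gene, beginning 107 bases before the start): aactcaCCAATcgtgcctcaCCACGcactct
Canx (chr11:50325794-50325824, with the gene, beginning 145 bases before the start): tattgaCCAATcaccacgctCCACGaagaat
Pdia6 (chr12:17266485-17266515, with the gene, beginning 98 bases before the start): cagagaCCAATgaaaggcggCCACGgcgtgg
Dnajc3 (chr14:118937821-118937851, with the gene, beginning 105 bases before the start): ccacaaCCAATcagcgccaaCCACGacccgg
Creld2 (chr15:88819514-88819544, against the gene, beginning 126 bases before the start): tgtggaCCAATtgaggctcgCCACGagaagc

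The 7 genes with this element had log2 fold changes from -0.16 to 0.11 for PTH (lowest limma adjusted p = 0.82) and from -0.24 to 0.14 for YKL-05-093 (lowest adjusted p = 0.841), and differed by -0.09 to 0.11 between the agents (lowest adjusted p = 0.386). In the form TGATGNAAT, the C/EBP-ATF response element, bound by ATF4, matched 0 of 33 genes (1.08% of all genes). In the form TGACGTGG, the unfolded protein response element, bound by XBP1 and ATF6, matched 0 of 33 (0.714% of all genes). Other forms of either element were not searched. No match says only that these exact letters are not in this window, and elements in introns or farther upstream are not covered. The cAMP response element TGACGTCA matched 1 gene of 33 (3.03%), Ppp1r15a, beside 2.03% of all genes. The shorter motif TGACG, which is also part of TGACGTGG and TGACGTCA, matched 13 of 33 (39.4%), beside 23.0% of all genes. The match of Ppp1r15a, shown because CREB acts downstream of PTH and chosen after its values had been seen, begins 12 bases before the start (chr7:45526267-45526286, minus strand, capitals mark the element).
Ppp1r15a: ctccggTGACGTCAgcacag

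Further genes of the same pathways were read from lists written with earlier results of these data known. Of 29 other integrated stress response and ATF4-linked genes, 24 were tested. After PTH 2 rose and 1 fell, where 2.19% of all genes tested passed. Gadd45a, a DNA damage and stress gene, rose from 1.51 and 1.72 RPKM to 8.50 and 7.83 (log2 fold change 2.27, limma adjusted p = 0.00168). Cebpb, which encodes a bZIP partner of ATF4, rose from 13.2 and 15.03 to 42.7 and 42.2 RPKM (1.58, adjusted p = 0.00413), and Stc2, which encodes a secreted glycoprotein, fell from 1.17 and 1.13 to 0.491 and 0.482 RPKM (-1.09, adjusted p = 0.0268). After YKL-05-093, Gadd45a was at 3.21 and 3.62, Cebpb at 26.9 and 28.1 and Stc2 at 0.530 and 0.641 RPKM. In limma 0 of the 24 passed for YKL-05-093, where 0.666% of all genes tested did. At an unadjusted p-value under 0.05 there were 9 of the 24 for each agent. Of all genes tested, 13.3% were for PTH and 8.66% for YKL-05-093. The median log2 fold change of the 24 genes was -0.03 for PTH and -0.04 for YKL-05-093, near those of all genes tested. Between the agents 3 were higher after PTH (Gadd45a, Cebpb and Slc1a4) and 2 lower (Slc38a2 and Jdp2), where 4.88% and 5.14% of all genes tested were. Slc38a2, a neutral amino acid transporter gene under ATF4 control, was at 69.0 and 50.6 RPKM in vehicle, at 40.6 and 38.3 after PTH and at 68.0 and 71.3 after YKL-05-093 (log2 difference -0.82, limma adjusted p = 5.55e-07). Slc1a4, which encodes a serine and alanine transporter, was at 6.41 and 5.97 RPKM after PTH and at 3.48 and 3.52 after YKL-05-093 (0.80, adjusted p = 5.76e-06), with vehicle at 6.08 and 5.71.

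The 20 cytosolic aminoacyl-tRNA synthetase genes, a group that includes known ATF4 targets, had 0 that passed in any comparison in limma, and also 0 at an unadjusted p-value under 0.05. Their median log2 fold changes were -0.14 for PTH and -0.13 for YKL-05-093, and 10 and 11 of the 20 lay below both vehicle libraries, where 24.0% and 22.1% of all genes tested did. Of 34 tested genes of ER folding, degradation and export outside the set, 0 passed for either agent against vehicle. At an unadjusted p-value under 0.05 there were 1 for PTH and 0 for YKL-05-093, where 13.3% and 8.66% of all genes tested were. Between the agents 1 was lower after PTH, Creb3l2, which encodes an ER-bound transcription factor, at 6.41 and 6.64 RPKM against 8.31 and 8.32 after YKL-05-093 (log2 difference -0.35, limma adjusted p = 0.0038), with vehicle at 8.23 and 5.17. Of all genes tested, 5.14% passed as lower after PTH than after YKL-05-093. The median log2 fold changes of these 34 genes against vehicle were -0.0015 for PTH and -0.02 for YKL-05-093.

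Markers of other stress pathways were read beside them. Of 11 tested cytosolic heat shock genes, 0 passed against vehicle in limma (3 for PTH and 0 for YKL-05-093 at an unadjusted p-value under 0.05). Of all genes tested, 13.3% for PTH and 8.66% for YKL-05-093 were under that unadjusted value. Between the agents 4.88% of all genes tested passed as higher after PTH and 5.14% as lower. Of the 11 heat shock genes, Hsph1, an HSP110 gene, was higher after PTH than after YKL-05-093 (log2 difference 0.43, limma adjusted p = 0.0198). Hspb1, which encodes HSP27, was lower (-0.52, limma adjusted p = 0.00651). Of the 8 genes of the NRF2 oxidative stress response, 0 passed against vehicle in limma (2 for PTH and 1 for YKL-05-093 at an unadjusted p-value under 0.05). Between the agents 4 of the 8 were higher after PTH (Hmox1, Txnrd1, Gclc and Srxn1), where 4.88% of all genes tested were. Hmox1, the haem oxygenase gene, was at 12.4 and 17.4 RPKM in vehicle, at 22.8 and 23.8 after PTH and at 16.1 and 15.3 after YKL-05-093 (log2 difference 0.57, adjusted p = 6.99e-05). Srxn1, the sulfiredoxin gene, was at 10.9 and 12.8, 21.7 and 20.3, and 15.5 and 15.8 RPKM in the same order (0.42, limma adjusted p = 0.000967). Gclc, which encodes the catalytic subunit of glutathione synthesis, differed by 0.32 (adjusted p = 0.0208). It was at 9.54 ± 0.770 RPKM after YKL-05-093 (SD, n = 2), and both of its values there were below those of vehicle, 13.0 and 10.9 RPKM, and of PTH, 12.2 and 11.6 RPKM.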

How the data were processed

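RNA of Ocy454 cells treated for 4 h was sequenced in 2 strand-specific libraries per condition, after removal of ribosomal RNA. The submitters' processing notes name CASAVA 1.7 and STAR, with mm10/GRCm38 as the build. The authors deposited RPKM values per gene, 1 library per column, on a linear scale with no factor applied between libraries, and the 6 single-library tables equal the series table. How gene length was taken and which strand setting was used in counting are not given in the sources used here.

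The number of reads that gave each RPKM was recovered by finding gene lengths and library totals for which all 6 values of a gene are whole. All 26214 genes above 0 gave whole reads, which the search itself requires, and the recovery was therefore tested on simulated data. The recovered reads served to model the spread, to describe depth, and in the voom alternative.

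Comparisons used limma 3.58.1 (R 4.3.3). It was run on log2(RPKM + 0.1). Genes that reached 0.5 RPKM in 2 or more of the 6 libraries were tested, with the prior variance trended on the mean log2 recovered reads. Each comparison was fitted on its own 4 libraries, and p-values were adjusted by Benjamini-Hochberg over all genes tested. Passing means an adjusted p-value under 0.05. A further count asks for more than a 2-fold change too. The study's edgeR count test was not used because the deposited values are RPKM, and the reads were only worked back from them. With limits of more than 2-fold and an adjusted p-value under 0.05, limma called 272 genes for PTH and 95 for YKL-05-093. The paper reports more genes for each agent by its own test. Fold changes are on the log2(RPKM + 0.1) scale, which understates those of low genes, and intervals are at 95%. The test was tested on simulated data with known changes. Floors of 3 reads cover counting error only.

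The members and lists were chosen with earlier results of these data known, as were the test settings. Named are all members that passed in a comparison, the readouts Atf4, Ddit3, Trib3, Asns, Xbp1 and Hspa5 whatever they did, and up to 3 genes per comparison from each further list. Other members named with values, such as Ppp1r15a, Slc3a2, Dnajb9, Slc7a5 and Herpud1, were chosen after their values had been seen, as were genes named only as part of a count. Promoter windows come from RefSeq (GRCm38.p6), and positions and overlaps from GENCODE M21 (GRCm38). Alternatives were other pseudocounts, filters, variance trends, 1 joint fit, median centring, voom, a replicate block and leaving out each library.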

Additional observations from a re-analysis of the deposited data

Results flagged for a closer look

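Each of the following results differed between PTH and YKL-05-093 by the limma test of the difference itself, and is given as log2 PTH over YKL-05-093. Within the set these were Atf3 (-0.58), Ddit3 (-0.29) and Ddit4 (0.32). Among the other integrated stress response genes these were Gadd45a (1.23), Slc38a2 (-0.82) and Slc1a4 (0.80), and among the other ER genes Creb3l2 (-0.35). Of the heat shock genes, Hspb1 (-0.52) and Hsph1 (0.43) differed, and of the NRF2 genes Hmox1 (0.57), Srxn1 (0.42) and Gclc (0.32). Of the cell type markers, Bglap (1.16), Sp7 (-1.14), Pth1r (-0.88) and the cartilage collagen gene Col2a1 (1.02) differed. From each list outside the set at most 3 genes are given here. Cebpb, Txnrd1 and Pdpn also passed as higher after PTH, and Jdp2 and Runx2 as lower. Groups of 2 libraries are too small to look for single libraries that stand apart from their group.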

How the results depend on the processing

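For PTH against vehicle the number of the 37 genes that passed was 0, and it was 1 (Ddit4, limma adjusted p = 0.0163) with 1 fit of all 6 libraries. Leaving out 1 library each gave 0 to 13 genes for PTH and 0 to 10 for YKL-05-093 against 0, both upper values without vehicle replicate 2. Between the agents 3 genes passed, but 0 without the filter, 1 (Atf3) with the trend on the mean log2 value, 0 with 1 fit of all 6 libraries, and 0 without any 1 of the 4 libraries. Over all genes tested, 1427 passed between the agents in the main fit. This fell to 302 without the filter, 499 with the trend on the mean log2 value and 146 with 1 fit of all 6 libraries. It was also lower without any 1 of the 4 libraries. The cause was not tested. Over all alternatives the adjusted p ranged from 0.000165 to 0.227 for Atf3, from 0.00414 to 0.744 for Ddit3 and from 0.00291 to 0.53 for Ddit4.

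Replicate numbers are shared between the groups but no source ties a number to a batch. Over 14264 genes, the differences between replicates were nearly uncorrelated between the groups (correlations of -0.03, -0.05 and -0.05). The share of mitochondrial reads, however, was higher in replicate 2 than in replicate 1 of every group. For PTH it was 13.7% in replicate 1 and 16.5% in replicate 2, and for YKL-05-093 13.2% and 15.9%. Vehicle replicate 1 had the lowest share, 11.7%. The cause of this shared difference was not tested. With the replicate number as a block, 1 gene (Ddit4, limma adjusted p = 0.0194) passed for PTH, 0 for YKL-05-093 and 3 between the agents. Over all genes tested the block raised the number that passed from 313 to 759 for PTH and from 95 to 301 for YKL-05-093. Between the agents it rose from 1427 to 1750.

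Signs of small values turned. Ppp1r15a between the agents was -0.0095 with the libraries centred on their medians. Leaving out 1 library gave, for PTH, -0.14 to 0.20 for Atf4, -0.11 to 0.30 for Ddit3, -0.029 to 0.36 for Trib3 and -0.22 to 0.042 for Asns. For YKL-05-093 it gave -0.12 to 0.22 for Atf4, -0.0030 to 0.39 for Trib3 and -0.0083 to 0.13 for Hspa5. Between the agents it gave -0.083 to 0.047 for Atf4, -0.21 to 0.16 for Trib3, -0.12 to 0.082 for Xbp1, -0.010 to 0.10 for Hspa5 and -0.031 to 0.057 for Ppp1r15a. At 1 RPKM, Slc7a11 was not tested. Chac1, with 29 to 77 reads per library, had the widest 95% interval of the 37 genes in each comparison.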
